A study of Mus musculus with 7 samples.

Results

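The nuclear genes named for subunits of respiratory complex I were followed through 7 mouse tibialis anterior muscles, the muscle at the front of the lower leg, and along the cryosections cut from each. Members were chosen by name alone: every gene row named Ndufa, Ndufb, Ndufc, Ndufs or Ndufv followed directly by a digit, without the Ndufaf assembly factors and without names ending in -ps. This gave 40 genes of the 53083 shared by the tables. The labels place 3 muscles in the DMD group, 2 in the WT group and 2 in the Ctr group, DMD standing for Duchenne muscular dystrophy in the series title. Column names carry mdx for DMD, pax7 for WT and hDMD for Ctr; the labels explain none of these names, give no age, strain, allele or treatment for any group, and do not say whether the muscles came from separate animals. P-values therefore measure the spread between these muscles, which may be partly technical.

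RNA was extracted from single sections, and 422 of 525 sections were used. Summed over the kept sections, the muscles held 41407203, 11181994 and 23341091 counts in DMD, 23116888 and 18268732 in WT, and 15575632 and 12224463 in Ctr. The fast-fibre genes fixed as tissue markers (Myh4, Acta1, Ckm and others) were abundant in all 7 muscles, with Acta1, the skeletal actin gene, at 12290 to 25692 CPM (counts scaled to a common library total). Dmd, the dystrophin gene, was detected in every muscle, at 9.25, 14.8 and 9.85 CPM in DMD, 16.3 and 13.2 in WT, and 9.56 and 15.9 in Ctr, and did not pass the test for DMD against Ctr (log2 difference -0.18 ± 0.29, edgeR adjusted p = 0.71). Transcripts encoded by the mitochondrial genome took 25.7 to 34.3% of the counts in DMD, 41.6 and 45.9% in WT, and 30.4 and 29.4% in Ctr. The WT tables were counted with another gene annotation than the DMD and Ctr tables, so in every comparison with WT the group and the counting cannot be told apart.

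Complex I, the NADH:ubiquinone oxidoreductase, is the entry point of electrons from NADH into the respiratory chain of the inner mitochondrial membrane. It is L-shaped. An N module at the tip of the matrix arm oxidises NADH, a Q module below it passes the electrons to ubiquinone, and a membrane arm, with a proximal and a distal part, pumps protons. A conserved core carries out the chemistry, and many accessory subunits surround it. The proton-pumping core of the membrane arm is made in the mitochondrion from mitochondrial genes, while all other subunits are imported from the cytosol. Limb muscle uses the enzyme to make ATP aerobically, and oxidative fibres hold more mitochondria than fast glycolytic ones.

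Of the 40 genes, 35 encode established subunits: 8 of the N module, 8 of the Q module, 9 of the proximal and 10 of the distal membrane arm. The remaining 5 carry a complex I name without belonging to these groups. They are Ndufa4, whose protein is now assigned to complex IV, its paralogue Ndufa4l2, known as a hypoxia-induced gene, and Ndufb4c, Ndufs6b and Ndufa11b. Ndufa11b (chr16:22053510-22053933) had 1 count in all muscles together and was not tested. Ndufs6b (chr7:81161397-81161744) had 36, 14 and 12 counts in the DMD muscles, 20 and 14 in WT, and 22 and 11 in Ctr. It passed the filter on low counts, so 39 of the 40 genes were tested between groups of muscles.

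Levels per kilobase of exon, averaged over the 7 muscles, spanned 11.5 CPM per kilobase (Ndufb7) to 964 (Ndufa12) among the 35 subunits, with a median of 115. They depend on the annotated exon length, 4522 bases for Ndufb7 and 1569 for Ndufa12. Whether counts in these libraries grow with exon length was not tested. The complex holds its subunits in fixed proportions, which these levels do not measure. Ndufa12 (chr10:94198720-94221443), an accessory subunit that joins the N module to the Q module, had 915, 1202 and 1458 CPM in the DMD muscles, 1572 and 1926 in WT, and 1722 and 1791 in Ctr. Every DMD muscle lay below every other muscle, but the gene did not pass the test (-0.56 ± 0.25, edgeR adjusted p = 0.161, against Ctr; -0.55 ± 0.25, adjusted p = 0.153, against WT). Ndufa12 alone made up 15.9, 15.6 and 19.0% of the summed level of the genes in DMD, 15.5 and 16.5% in WT, and 19.8 and 20.5% in Ctr. A similarly named copy, Ndufa12-ps, is counted as another gene, and 53.8% of the nonzero section values of Ndufa12 were not whole numbers, the mark of reads divided among places.

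Ndufc1 (chr3:51404677-51408988), a small subunit of the proximal membrane arm, came next at 578 CPM per kilobase. It had 478, 860.4 and 869 CPM in DMD, 925 and 1045 in WT, and 894 and 979 in Ctr; DMD 1 stood well below the other 6 muscles. Ndufa8 (chr2:36036326-36049406), a proximal-arm subunit with paired-cysteine motifs, had 226, 323 and 241 CPM in DMD, 412 and 431 in WT, and 334 and 422 in Ctr. All 3 DMD values of both genes were below all 4 others, and neither gene passed the test (Ndufc1 -0.35 ± 0.28 against Ctr and -0.42 ± 0.28 against WT; Ndufa8 -0.52 ± 0.23 and -0.68 ± 0.23, adjusted p = 0.154 and 0.0707 by edgeR).

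**Figure D1:**
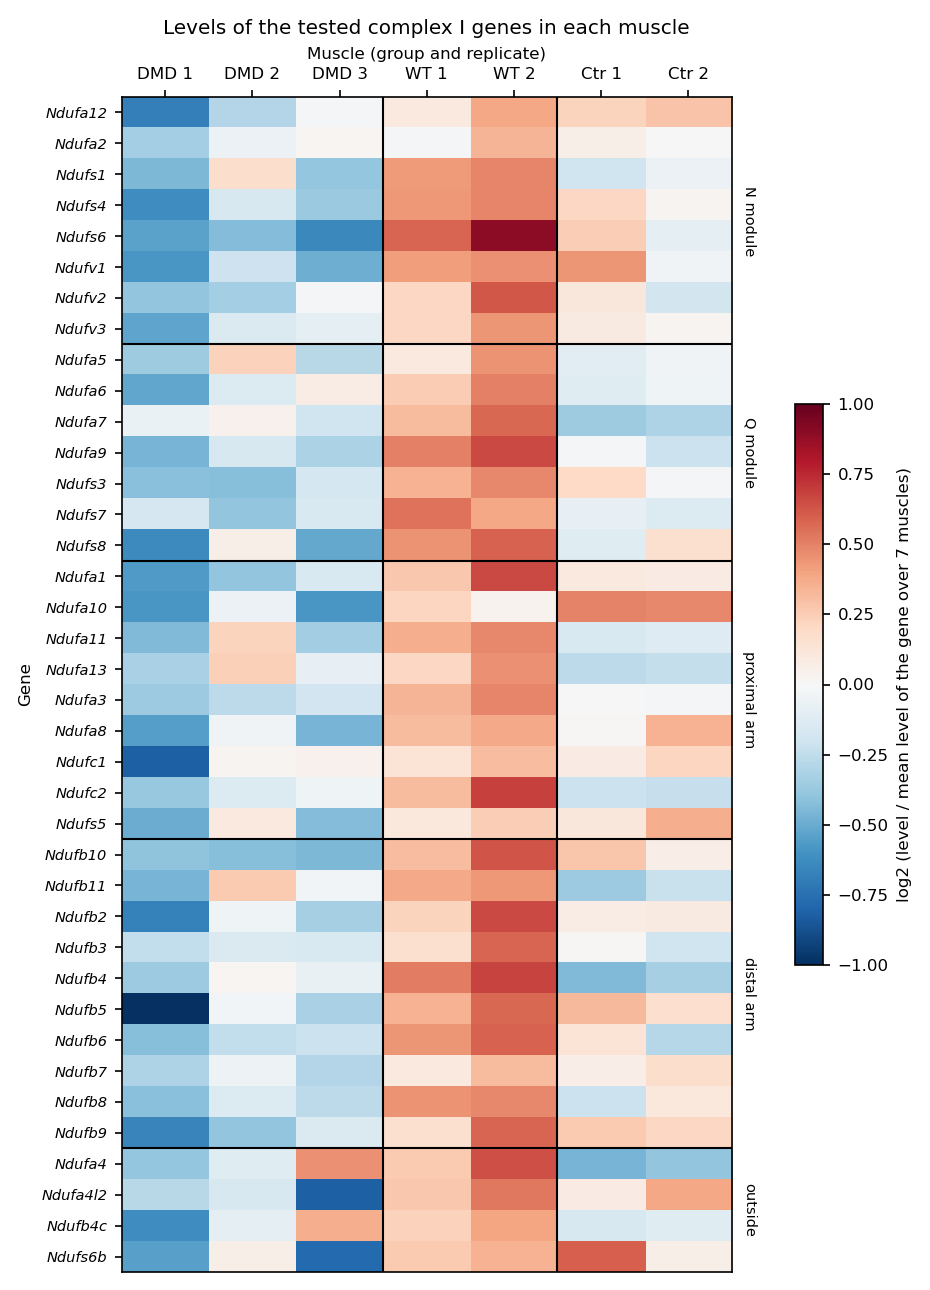
Heat map of 38 of the 39 tested complex I genes (rows, by part of the complex) in each muscle (columns, DMD, WT and Ctr). Colour gives the log2 ratio of a gene's TMM-scaled CPM to its mean over the 7 muscles. The 2 WT columns hold most of the high values and DMD 1 most of the low ones, with Ndufa4 and Ndufb4 low in Ctr as well.

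Between DMD and Ctr muscles, complex I transcripts were mostly lower in DMD after TMM scaling, which sets the libraries to a common level of their typical genes, but 1 gene alone passed the test. Of the 39 genes, 1 was lower at an adjusted p under 0.05, where 5.49% of all 13746 genes were lower, and 0 were higher, where 7.17% of all genes were. An unadjusted edgeR p under 0.05 was reached by 11 of the 39, and by 4240 of all 13746 genes. DESeq2 called 4 of the 39 lower and 0 higher, against 850 and 1105 of all 13746 genes. The difference was below 0 for 32 of the 39 genes, against 48.7% of all genes, and the median was -0.30 on the log2 scale, against 0.022 over all genes; without scaling factors the median was -0.010, with that of all genes at 0.33. In 21 genes every DMD muscle lay below both Ctr muscles, which held for 22.2% of all genes, and in 2 (Ndufa4 and Ndufa7) every DMD muscle lay above them, against 23.8%. The genes separated in the lower direction thus made up a larger share than among all genes, and those in the higher direction a smaller one. In bulk sections, fewer muscle fibres and less RNA per fibre cannot be told apart.

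The gene that passed was Ndufa10 (chr1:92439010-92473860), an accessory subunit of the proximal membrane arm related to nucleoside kinases. Its level was 41.4, 59.6 and 41.3 CPM in the DMD muscles, 71.9 and 63.3 in WT, and 87.4 and 86.3 in Ctr. The 3 groups did not overlap, and Ctr was the highest. The means were 47.4 ± 10.5 CPM in DMD (SD, n = 3), 67.6 ± 6.07 in WT (n = 2) and 86.8 ± 0.722 in Ctr (n = 2). DMD was 45.5% lower than Ctr, a log2 difference of -0.87 ± 0.22 (edgeR adjusted p = 0.0313), and the difference from WT was -0.51 ± 0.22 (adjusted p = 0.13). The call rested on single muscles: leaving out each muscle in turn gave edgeR adjusted p-values of 0.0208 to 0.192, and it held only without DMD 2 (0.0273) or without DMD 3 (0.0208). Without scaling factors the difference was -0.55 (adjusted p = 0.25).

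The 7 nuclear core subunits were all below 0 for DMD against Ctr with a median of -0.36, and 0 of them passed. Ndufv1 (chr19:4007384-4012806), which binds NADH and the flavin that takes its electrons, had 194, 252 and 207 CPM in DMD, 387 and 397 in WT, and 394 and 284 in Ctr. The DMD values lay below all others, and the difference from Ctr was -0.64 ± 0.22 (edgeR adjusted p = 0.084).

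Ndufs3 (chr2:90894634-90904827), a structural core subunit of the Q module, had 156, 156 and 186 CPM in DMD, 267 and 292 in WT, and 241 and 208 in Ctr. It too showed no overlap between DMD and the other muscles, and it differed from Ctr by -0.43 ± 0.20 (edgeR adjusted p = 0.17). Ndufs7 (chr10:80249121-80256794), which carries the last iron-sulphur cluster before ubiquinone, had 137, 117 and 138 CPM in DMD, 224 and 199.9 in WT, and 144 and 139 in Ctr. The DMD values lay just under those of Ctr (-0.12 ± 0.19, adjusted p = 0.708), and WT stood above both.

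In 3 core genes DMD and Ctr overlapped. Ndufv2 (chr17:66078638-66101559), the partner of Ndufv1 with an iron-sulphur cluster, had 111, 115 and 143 CPM in DMD, 168 and 224 in WT, and 158 and 128 in Ctr. Ndufs1 (chr1:63143596-63176833), the largest core subunit and a carrier of several iron-sulphur clusters, had 162, 249.5 and 169 CPM in DMD, 297 and 310.4 in WT, and 192 and 212 in Ctr. Ndufs8 (chr19:3908863-3912774), which carries iron-sulphur clusters of the Q module, had 136, 219.8 and 149 CPM in DMD, 289 and 319 in WT, and 195 and 237 in Ctr. In Ndufs1 and Ndufs8 the overlap came from DMD 2, the highest of the DMD muscles. Their differences from Ctr were -0.21 ± 0.22 for Ndufv2, -0.06 ± 0.24 for Ndufs1 and -0.36 ± 0.25 for Ndufs8 on the log2 scale, with edgeR adjusted p-values of 0.55, 0.89 and 0.35.

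By part of the complex, the median log2 difference of DMD from Ctr was -0.40 over the 8 N-module genes, -0.16 over the 8 Q-module genes, -0.35 over the 9 genes of the proximal and -0.29 over the 10 of the distal membrane arm. The Q-module value was the least negative, with Ndufa7, an accessory subunit, at 71.8, 77.1 and 65.2 CPM in DMD, 93.5 and 112 in WT, and 58.5 and 60.6 in Ctr. Differences between the parts of the complex were not tested. The summed N module made up 33.3, 32.2 and 33.9% of the level of all the genes in DMD, 33.5 and 34.4% in WT, and 38.14 and 36.3% in Ctr. Without Ndufa12 those shares were 20.7, 19.6 and 18.4% in DMD, 21.3 and 21.4% in WT, and 22.9 and 19.9% in Ctr, so DMD then overlapped with Ctr.

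**Figure D2:**
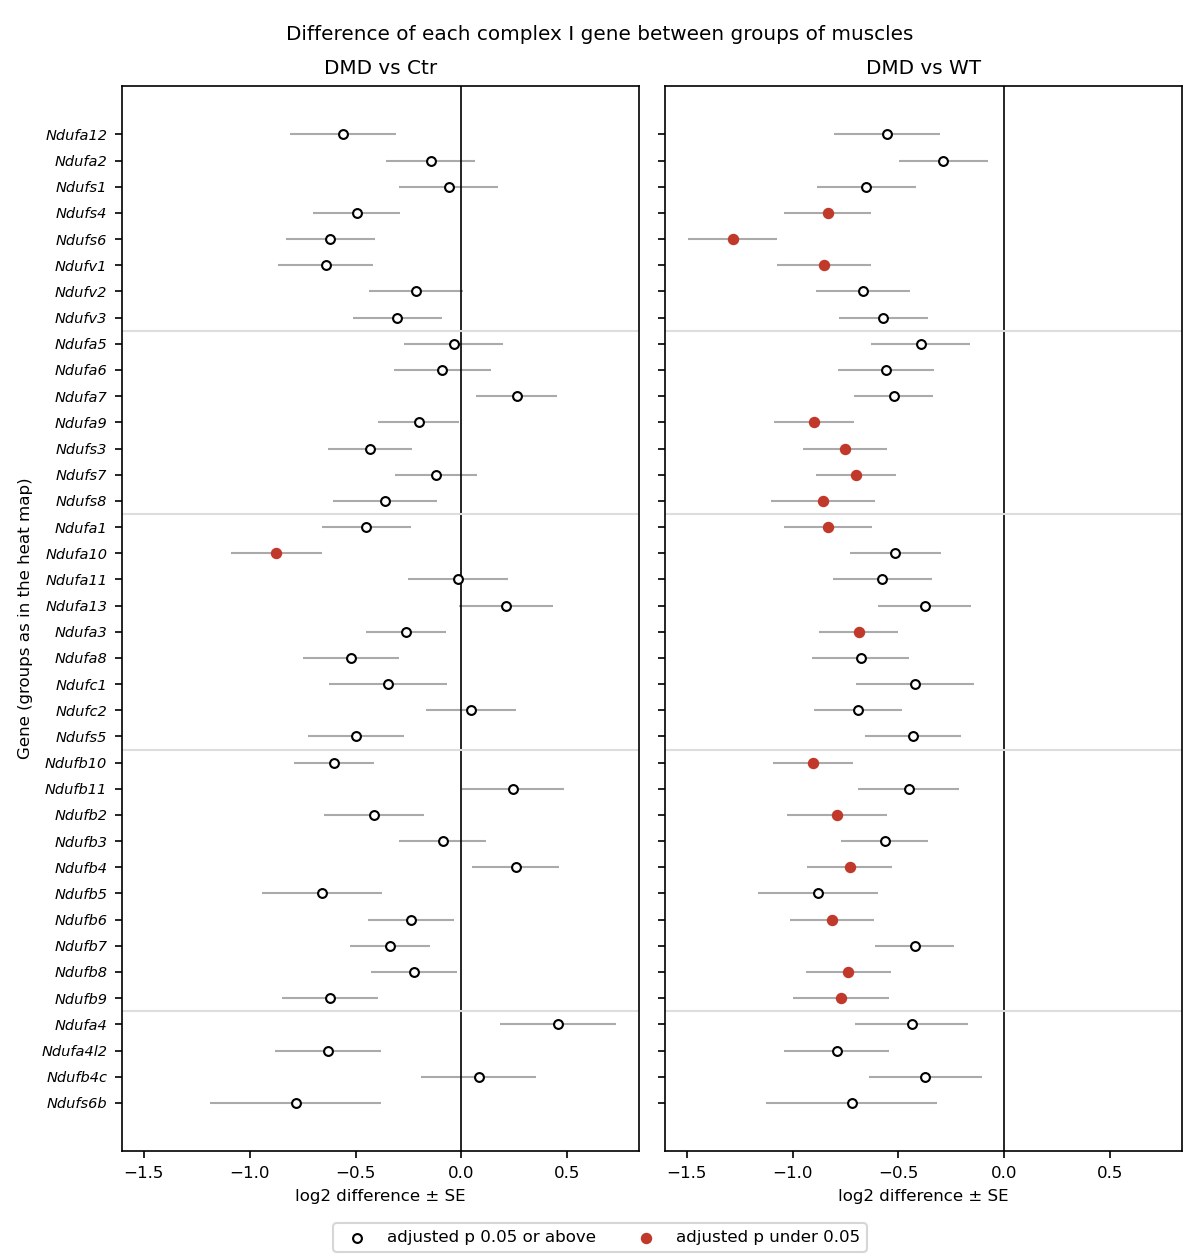
Log2 difference of each of 38 complex I genes (rows) with its standard error, for DMD against Ctr (left) and DMD against WT (right); filled points passed an edgeR adjusted p under 0.05. On the left only Ndufa10 is filled. On the right all 38 points lie below 0 and 15 are filled. Without scaling factors the median over the 39 tested genes is 0.075 against 0.82 over all genes, and 0 of the 39 are called.

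Against WT, the difference was below 0 for all 39 tested genes after TMM scaling, against 45.7% of all genes, and 15 passed the test, where 6.92% of all genes were called lower; without scaling factors the median of the genes was 0.075 and 0 were called, beside a median of 0.82 over all genes. The scaled median was -0.68, against 0.070 over all genes. The genes lay 0.75 below the all-gene median after scaling and 0.74 below it without. Scaling factors move all genes of a comparison about alike, so this gap cannot test the scaling. In 34 of the 39 genes every DMD muscle lay below both WT muscles, which held for 24.2% of all genes. Leaving out either WT muscle left 1 in that group, and calls then fell among the complex I genes and among all genes. The complex I median was -0.75 without WT 1 and -0.61 without WT 2. Without DMD 1, 2 or 3 in turn, 3, 10 and 24 of the 39 were called lower. Of all genes, 448 of 12858, 532 of 13363 and 1439 of 13545 were.

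Ndufs6 (chr13:73319838-73328542), a zinc-binding accessory subunit of the N module, differed most. It had 171, 184 and 159 CPM in the DMD muscles, 371 and 463 in WT, and 294 and 232 in Ctr. The groups were fully separated, with means of 171 ± 12.5 CPM in DMD (SD, n = 3), 417 ± 64.6 in WT (n = 2) and 263 ± 44.2 in Ctr (n = 2). DMD differed from WT by -1.28 ± 0.21 on the log2 scale (edgeR adjusted p = 0.00801) and from Ctr by -0.62 ± 0.21 (adjusted p = 0.0784). The call against WT was lost without WT 1 (edgeR adjusted p = 0.0642), without WT 2 (0.128) and without scaling factors (-0.50, 0.14). The retrocopy Ndufs6b shares 96.6% of its bases with Ndufs6, and 42.4% of the nonzero section values of Ndufs6 were not whole.

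Ndufb10 (chr17:24722060-24724478), a disulphide-bonded subunit of the distal membrane arm, had 54.1, 53.1 and 52.3 CPM in DMD, 88.4 and 111 in WT, and 86.7 and 74.8 in Ctr. Its 3 DMD values were the closest together of any of the genes, and all lay below the other 4 muscles. The difference was -0.90 ± 0.19 from WT (edgeR adjusted p = 0.0181) and -0.60 ± 0.19 from Ctr (adjusted p = 0.0636). Ndufa9 (chr6:126821721-126849136), a Q-module subunit that binds NADPH, had 40.6, 50.1 and 45.0 CPM in DMD, 79.5 and 88.7 in WT, and 55.6 and 48.2 in Ctr. DMD overlapped with Ctr here but not with WT, from which it differed by -0.90 ± 0.19 (edgeR adjusted p = 0.0182). Both calls were lost without either WT muscle, at adjusted p-values of 0.104 and 0.195 for Ndufb10 and 0.122 and 0.181 for Ndufa9.

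Among core subunits, 4 of 7 passed against WT, where 6.92% of all genes were called lower. The differences were -0.85 ± 0.22 for Ndufv1 (edgeR adjusted p = 0.0333), -0.85 ± 0.24 for Ndufs8 (0.0441), -0.75 ± 0.20 for Ndufs3 (0.0337) and -0.70 ± 0.19 for Ndufs7 (0.0373). Ndufv2 and Ndufs1, at -0.67 and -0.65, had adjusted p-values of 0.068 and 0.0839. The Ndufs8 call was lost on leaving out either WT muscle, either Ctr muscle (0.0579 and 0.0542) or DMD 1 (0.101).

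The remaining accessory genes that passed against WT belonged to the N module and to the membrane arm. In the N module this was Ndufs4, an assembly-critical subunit that is phosphorylated (-0.83, edgeR adjusted p = 0.0272), at 104, 143 and 124 CPM in DMD, 216 and 225 in WT, and 185 and 163 in Ctr. In the proximal arm these were Ndufa1, an X-linked subunit of the arm's base (-0.83, adjusted p = 0.029), and Ndufa3 (-0.69, 0.0376). In the distal arm 6 of 10 passed, where 6.92% of all genes were called lower. With Ndufb10 these were Ndufb6 (-0.81), Ndufb2 (-0.79), Ndufb9 (-0.77), Ndufb8 (-0.74) and Ndufb4 (-0.73), at edgeR adjusted p-values of 0.0274 to 0.0491. Differences between the parts were not tested. The medians of the 4 parts lay close together, at -0.66 for the N module, -0.68 for the Q module, -0.58 for the proximal and -0.75 for the distal arm.

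After TMM scaling WT exceeded Ctr in most of the genes, a direction the median did not keep without scaling factors. The difference was below 0 for 4 of 39 genes, against 50.9% of all genes, and above 0 for 35, with a median of 0.38 against -0.013 over all genes; without scaling factors the median was -0.078, with that of all genes at -0.45. Of the 39, 0 passed in edgeR, where 0.364% of all genes did. An unadjusted edgeR p under 0.05 was reached by 12 of the 39, against 2481 of 13746 genes. DESeq2 called 2 of the 39 higher, against 221 of 13746. In 27 genes both WT muscles lay above both Ctr muscles, against 27.2% of all genes, and Ndufa10 was the 1 gene with both below, against 27.8%. The largest difference was that of Ndufb4 (chr16:37647170-37654453), a distal-arm subunit, at 151, 197 and 184 CPM in DMD, 278 and 311 in WT, and 143 and 154 in Ctr (WT against Ctr 0.99 ± 0.23, edgeR adjusted p = 0.0829; DMD against Ctr 0.26 ± 0.21, 0.429). The gene Ndufb4c carries 390 bases identical to the Ndufb4 transcript, 87.4% of the nonzero section values of Ndufb4 were not whole, and the annotations of WT and Ctr differ, so the level of Ndufb4 is uncertain.

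Ndufa4 (chr6:11900292-11907497), like Ndufa7, had every DMD muscle above both Ctr muscles. The DMD mean also exceeded that of Ctr in Ndufb4, Ndufa13, Ndufb11 and Ndufb4c, where the muscles overlapped. It had 239, 289 and 430.1 CPM in DMD, 376 and 489 in WT, and 228 and 239 in Ctr. DMD was widely spread, with DMD 1 barely above Ctr and DMD 3 inside the range of WT (0.45 ± 0.27 against Ctr, edgeR adjusted p = 0.288). Ndufa4l2 (chr10:127514967-127517154) had 5.06, 5.48 and 3.49 CPM in DMD, 7.38 and 8.85 in WT, and 6.48 and 8.00 in Ctr. Every DMD value lay below every other, without passing (-0.63 ± 0.25, adjusted p = 0.121, against Ctr; -0.79 ± 0.25, 0.057, against WT).

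Summed over all the genes, the scaled level was 5759, 7677 and 7686 CPM in the DMD muscles, 10104 and 11663 in WT, and 8691 and 8713 in Ctr. Before scaling it was 8121, 10286 and 7558 CPM in DMD, 8122 and 7799 in WT, and 9053 and 8378 in Ctr, so the groups were separated with scaling and overlapped without. With mitochondrially encoded genes left out of the totals and no further scaling, it was 12946, 15075 and 13258 CPM in DMD, 16763 and 18134 in WT, and 14638 and 13092 in Ctr: WT stayed on top, and DMD and Ctr overlapped. Muscles of one group differed from each other by a median coefficient of variation of 15.9% per gene in DMD (1.71% for Ndufb10 to 33.7% for Ndufb5), 9.28% in WT and 6.38% in Ctr.

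The other genes of the enzyme and of its surroundings gave a mixed picture for DMD against Ctr. Of 16 assembly factors 2 fell, Ndufaf4 (-1.38 ± 0.25, edgeR adjusted p = 0.0136) and Ndufaf6 (-0.84 ± 0.23, 0.0428), with a list median of -0.15. Of the 7 mitochondrially encoded subunits mt-Nd5 (-1.08 ± 0.31, adjusted p = 0.0483) and mt-Nd6 (-1.02 ± 0.20, 0.0167) fell, and the list median was near 0. Of 38 nuclear genes of complexes II to V 3 fell: Sdhd, a membrane anchor of complex II (-1.18, 0.0317), Cox4i1 of complex IV (-0.94, 0.028) and Uqcrc1 of complex III (-0.84, 0.0324). Their list median of -0.29, with 30 of 38 below 0, was close to the -0.30 of the complex I genes.

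Of 8 regulators of mitochondrial gene expression 3 fell against Ctr: Ppargc1a, the coactivator of mitochondrial biogenesis (-1.75 ± 0.33, edgeR adjusted p = 0.0148), Perm1, a muscle regulator of oxidative genes (-1.63 ± 0.22, 0.00544), and Esrra, a nuclear receptor that works with Ppargc1a (-1.21 ± 0.26, 0.0212). None of 11 genes of the tricarboxylic acid cycle passed, with a median of -0.46, and 1 of 11 genes of the outer membrane and import did, the chaperone Hspa9 (-0.78 ± 0.20, 0.0333).

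Against WT the values were these on the TMM scale. Of the 7 mitochondrially encoded subunits 5 fell, with a median of -1.38, led by mt-Nd2 (-1.61 ± 0.41, edgeR adjusted p = 0.0299). Of 38 genes of complexes II to V 12 fell with a median of -0.61, led by Atp5g1 of ATP synthase (-1.22 ± 0.21, 0.00986), Sdhb (-1.15 ± 0.20, 0.0101) and Uqcrb (-1.07 ± 0.21, 0.0145). Of 16 assembly factors Ndufaf6, Ndufaf4 and Ecsit fell, of 11 cycle genes 6 fell, led by Idh3b (-1.12 ± 0.21, 0.0142), and of 11 import genes 5 fell, led by Timm23 (-1.40 ± 0.19, 0.00399). The ratio of the summed complex I level to that of complexes II to V was 0.389, 0.354 and 0.389 in DMD, 0.367 and 0.375 in WT, and 0.376 and 0.337 in Ctr. It overlapped between all groups. The ratio to the mitochondrially encoded subunits was 0.0662, 0.0994 and 0.0608 in DMD, 0.0458 and 0.0382 in WT, and 0.0920 and 0.0744 in Ctr, lowest in WT.

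**Figure D3:**
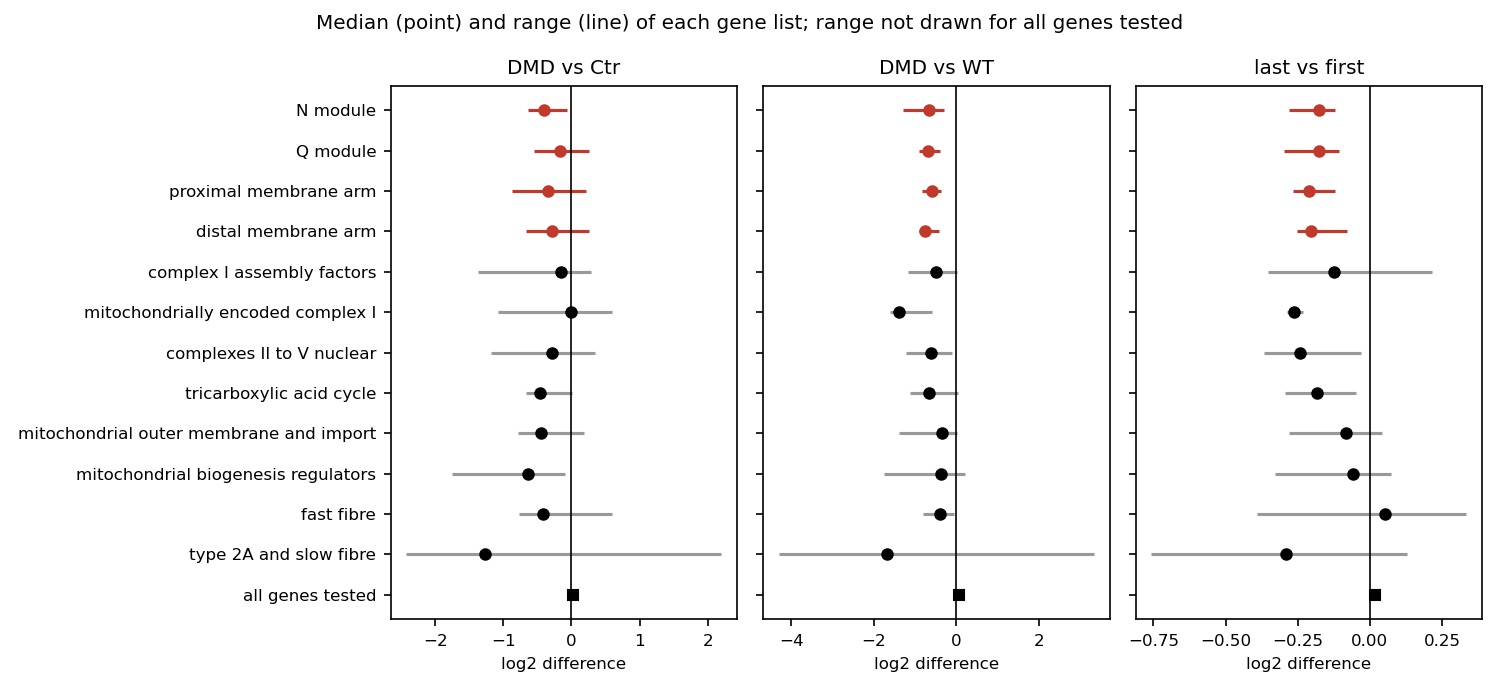
Median log2 difference (points) and range (lines) of the 4 parts of complex I (red), the related mitochondrial lists and the fibre lists, for DMD against Ctr, DMD against WT and the last against the first segment of the section order; the square is the median of all genes tested. The medians of the 4 parts lie at -0.40 to -0.16, -0.75 to -0.58 and -0.21 to -0.18, next to -0.29, -0.61 and -0.24 for complexes II to V. Without scaling factors the medians over the complex I genes are -0.010, 0.075 and -0.05, and those over all genes 0.33, 0.82 and 0.16.

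Markers of other cells and fibre types moved with the groups. All 8 macrophage genes rose in DMD against Ctr and against WT, and their summed level was 145.8 to 867 CPM in DMD, 52.8 and 62.9 in WT, and 34.4 and 56.5 in Ctr, with no marker at 0 in any muscle. Genes of regenerating fibres rose for 5 of 6 (summed 21.5 to 79.3 CPM in DMD, 5.61 and 4.70 in WT, 7.0 and 11.4 in Ctr; 0 were at 0 in DMD, 1 in each WT muscle, and 3 and 2 in Ctr). Fibroblast and matrix genes rose for 5 of 7 against Ctr (772 to 1621 CPM in DMD, 494 and 649 in WT, 256 and 429 in Ctr). Of the fast-fibre genes 0 of 8 passed, with a median of -0.42 against Ctr and a summed level of 61719 to 89463 CPM in DMD, 91207 and 96483 in WT, and 89161 and 116051 in Ctr. Of the type 2A and slow-fibre genes Myl3 (-2.42 ± 0.19, edgeR adjusted p = 9.05e-04) and Myh2, the myosin of oxidative type 2A fibres (-1.27 ± 0.24, 0.0159), fell against Ctr, 2 of 7, and their list summed to 81.7 to 117 CPM in DMD, 371 and 433 in WT, and 177 and 274 in Ctr. Tendon genes rose for 5 of 7 against Ctr (25.6 to 34.8 CPM in DMD, 36.7 and 51.3 in WT, 5.93 and 13.2 in Ctr), and 2 of 5 erythroid and 2 of 5 Schwann cell genes fell. DMD 3 had the lowest macrophage and fibroblast sums of the DMD muscles and DMD 1 the lowest complex I sum. The part of these cells and fibres in the complex I differences was not tested.

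The promoters of the genes were searched for short motifs of factors known to control nuclear respiratory genes, over the 250 bases before the start of 32 genes that matched a RefSeq promoter (build GRCm38.p6), on both strands. The NRF1 motif, the letters GCGCA and GCGC with any 1 base between them, was found in 6 of 32, or 18.8%, against 3.86% of 27025 RefSeq promoters. The GABPA motif CCGGAAGT (2.93% of all promoters), the YY1 motif AAGATGGCG (0.607%) and the ESRRA motif TCAAGGTCA (0.366%) were found in 0 of 32, and TATAAA in 4 of 32, or 12.5%, against 13.0%. For each of these 6 genes 1 stretch with an NRF1 match is shown, because the genes come from every part of the complex, in the gene's own direction and with the match in capitals; Ndufb4 had 3 matches, of which the one nearest to the start is given:
Ndufs6: cgactgctgtGCGCCTGCGCcggcac
Ndufb4: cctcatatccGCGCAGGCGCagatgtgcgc
Ndufa8: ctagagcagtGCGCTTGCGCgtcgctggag
Ndufs5: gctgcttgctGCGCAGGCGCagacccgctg
Ndufa11: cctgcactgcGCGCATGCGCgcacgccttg
Ndufa5: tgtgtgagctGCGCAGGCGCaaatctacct

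They lie at chr13:73328483-73328508, chr16:37654371-37654400, chr2:36049349-36049378, chr4:123718265-123718294 and chr6:24527697-24527726 on the minus strand for Ndufs6, Ndufb4, Ndufa8, Ndufs5 and Ndufa5, and at chr17:56717692-56717721 on the plus strand for Ndufa11. The first base of the match lies 16, 22, 30, 98, 60 and 190 bases before the start in Ndufs6, Ndufb4, Ndufa8, Ndufs5, Ndufa11 and Ndufa5. The 6 genes differed widely: their log2 differences of DMD from WT were -1.28, -0.73, -0.68, -0.43, -0.58 and -0.40 in that order, which covers nearly the whole range of the 39 genes. Nrf1, the gene of the factor itself, had 4.18 to 6.64 CPM and differed by -0.09 between DMD and Ctr (edgeR adjusted p = 0.855). A match is a run of letters in this window, and binding was not measured.

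Along the section order, every muscle was divided into 3 segments of equal numbers of kept sections, the first, the middle and the last. The labels do not say which end of the muscle comes first, or whether all muscles were cut in the same direction. The last segment need therefore not be the same end in every muscle, which limits averages and group differences of last against first. Neighbouring sections resembled each other more than distant ones, with mean correlations of 0.040 to 0.179 between neighbours. Between the middle and the ends 0 of 38 complex I genes were called, against 0.202% of all genes. In edgeR 2 of 38 had an unadjusted p under 0.05, against 644 of 11853 genes. DESeq2 called 0 of 38, against 20 of 11853. Averaged over the groups, the difference was below 0 for 5 of the 38, against 47.8% of all genes. The median was 0.05 against 0.0066 over all genes. By group, 3, 16 and 7 of 38 were below 0 in DMD, WT and Ctr. The group medians were 0.07, 0.01 and 0.05, against -0.01, 0.02 and 0.01 over all genes. The muscles differed in direction. Their medians were 0.08, 0.20 and -0.06 in DMD, -0.03 and 0.06 in WT, and 0.09 and -0.0048 in Ctr.

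After TMM scaling, the last segment held less complex I RNA than the first. The difference was below 0 for all 38 genes tested, against 46.3% of 11853 genes, with a median of -0.19 against 0.018 over all genes, and 7 of 38 passed, where 2.08% of all genes were called lower. Without scaling factors 31 of 38 were below 0, with a median of -0.05 against 0.16 over all genes. There 0 of the 38 were called lower, as were 104 of 11853 genes. The complex I median lay 0.21 below the all-gene median with scaling and 0.21 below it without, a gap that scaling factors leave almost unchanged for any set of genes. Of the 38 genes 20 were lower in the last segment in all 7 muscles, which held for 3.05% of all genes, and 34 in at least 6 muscles, which held for 9.48%. The medians over the genes were -0.54, -0.19 and -0.11 in the DMD muscles, -0.07 and -0.17 in WT, and -0.18 and -0.23 in Ctr, so DMD 1 had the largest decrease and WT 1 the smallest.

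**Figure D4:**
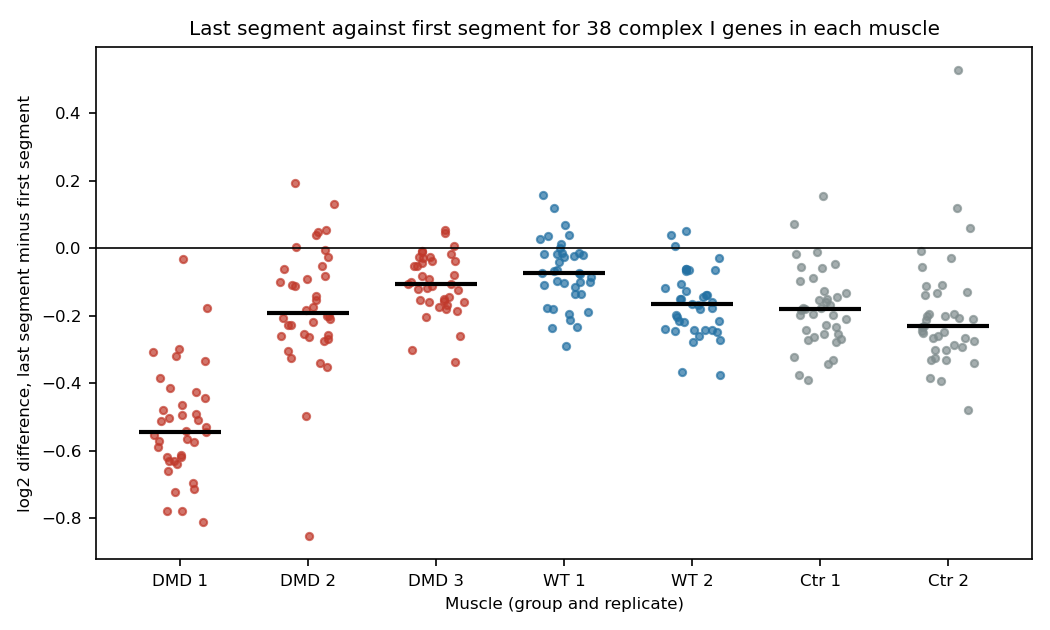
Log2 difference of the last segment minus the first segment for each of 38 complex I genes (points) in each muscle (DMD, WT, Ctr), with the median as a bar. The medians lie below 0 in all 7 muscles, from -0.54 in DMD 1 to -0.07 in WT 1; without scaling factors 31 of the 38 averaged differences are below 0.

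Ndufa9 led this comparison. Its CPM in the first, middle and last segment was 48.2, 40.9 and 35.6 in DMD 1, 54.2, 52.6 and 44.7 in DMD 2, and 49.0, 43.8 and 42.4 in DMD 3. It was 80.2, 85.3 and 70.9 in WT 1 and 96.0, 90.7 and 74.3 in WT 2, and 58.3, 55.9 and 49.7 in Ctr 1 and 57.6, 46.6 and 43.6 in Ctr 2. The last segment was the lowest in every muscle, by -0.30 ± 0.07 on the log2 scale (edgeR adjusted p = 0.00978).

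Ndufs8 had 164, 142 and 112 CPM in DMD 1, 222, 251 and 191 in DMD 2, and 156, 146 and 147 in DMD 3. WT 1 had 318, 289 and 260.3 and WT 2 338, 333 and 260.2. Ctr 1 had 199, 201 and 174 and Ctr 2 259, 244 and 216. Its last segment lay below its first in all 7 muscles, least in DMD 3 (-0.28 ± 0.07, edgeR adjusted p = 0.0145). Ndufv1 had 257, 196 and 146 CPM in DMD 1, 267, 271 and 224 in DMD 2, and 234, 197 and 189.9 in DMD 3. WT 1 had 389, 405 and 361 and WT 2 407, 411 and 351. Ctr 1 had 417, 384 and 363 and Ctr 2 304, 297 and 258. The last segment was again the lowest in each muscle (-0.28 ± 0.07, adjusted p = 0.017), with the widest span in DMD 1. Ndufs6 differed by -0.27 ± 0.07 (adjusted p = 0.021), at 205, 183 and 138 CPM in DMD 1, 195, 202 and 158 in DMD 2, and 173, 151 and 155 in DMD 3. WT 1 had 402, 362 and 355 and WT 2 482, 473 and 408. Ctr 1 had 294, 315 and 259 and Ctr 2 262, 233 and 212, so the last segment was below the first in each muscle.

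The other 3 that passed were Ndufb10 (-0.25 ± 0.07, edgeR adjusted p = 0.0321), Ndufa1 (-0.25 ± 0.07, 0.0346) and Ndufa3 (-0.24 ± 0.07, 0.0421). The medians of the parts of the complex were -0.18 for the N and the Q module, -0.21 for the proximal and -0.20 for the distal arm. Leaving out any WT or Ctr muscle left 1 in its group, and calls then fell among the complex I genes and among all genes. The complex I median was -0.22 without WT 1, -0.17 without WT 2, -0.20 without Ctr 1 and -0.20 without Ctr 2. Without DMD 1, 2 or 3 in turn, 5, 15 and 14 complex I genes were called lower. Of all genes, 219 of 11311, 320 of 11870 and 273 of 11738 were.

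Whether the decrease differed between groups was tested as an interaction. For last against first, DMD minus Ctr, 0 of 38 were called, against 0.0591% of all genes, with a median of -0.09. An unadjusted edgeR p under 0.05 was reached by 1 of 38, against 846 of 11853 genes. For DMD minus WT 0 of 38 were called, against 0.11%, with a median of -0.15. Here too 1 of 38 had an unadjusted p under 0.05, against 931 of 11853 genes. For the middle against the ends, DMD minus Ctr, it was 0 of 38, against 0.00844%, with 1 of 38 unadjusted, against 433 of 11853 genes. DESeq2 called 0 of the 38 in each of these 3 differences, against 7, 9 and 0 of all 11853 genes in that order. Within the DMD muscles alone, Ndufv1 (-0.47 ± 0.10, edgeR adjusted p = 0.0246), Ndufc2 (-0.44 ± 0.11, 0.0481) and Ndufb6 (-0.45 ± 0.11, 0.0488) passed, 3 of 38, where 0.591% of all genes were called lower.

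Other genes changed along the order as well. Of 38 nuclear genes of complexes II to V 19 were lower in the last segment, with a median of -0.24, led by Cox6b1 (-0.37 ± 0.06, edgeR adjusted p = 0.00105), Cox7a1 (-0.32 ± 0.07, 0.0053) and Uqcrc2 (-0.32 ± 0.07, 0.0135). Of the mitochondrially encoded subunits 3 of 7 were, mt-Nd3, mt-Nd1 and mt-Nd4, with a list median of -0.26, as were 4 of 11 cycle genes and 0 of 16 assembly factors. The type 2A myosin Myh2 (-0.76 ± 0.10, adjusted p = 3.48e-05) and Myl3 (-0.38 ± 0.08, 0.00757) were lower in the last segment, as was Myh1, the myosin of type 2X fibres (-0.39 ± 0.09, 0.00873). Myh4, the myosin of the fastest type 2B fibres, was higher (0.33 ± 0.07, 0.00873). Tendon genes were higher for 4 of 7, led by Cilp2 (3.56 ± 0.51, 7.81e-05); all 5 erythroid genes were lower (median -1.75), and 3 of 5 Schwann cell genes were. The part of fibre types and other cells in the complex I decrease was not tested.

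Section by section, the score was the summed CPM of the complex I genes with mitochondrially encoded genes left out of the section total. Its mean in the first, middle and last segment was 14556, 13315 and 10703 in DMD 1, 15292, 16264 and 13191 in DMD 2, and 13399, 13072 and 13155 in DMD 3. In WT it was 17649, 16628 and 16354, and 19442, 18255 and 16471; in Ctr it was 15007, 15148 and 13489, and 13176, 13452 and 12398. The last segment lay below the first in all 7 muscles, by -26.5, -13.7 and -1.8% in DMD, -7.3 and -15.3% in WT, and -10.1 and -5.9% in Ctr. In CPM of the whole section total the changes were -16.6, -8.8 and -1.5% in DMD, 2.7 and -3.5% in WT, and -0.9 and -5.4% in Ctr, so WT 1 changed sign.

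**Figure D5:**
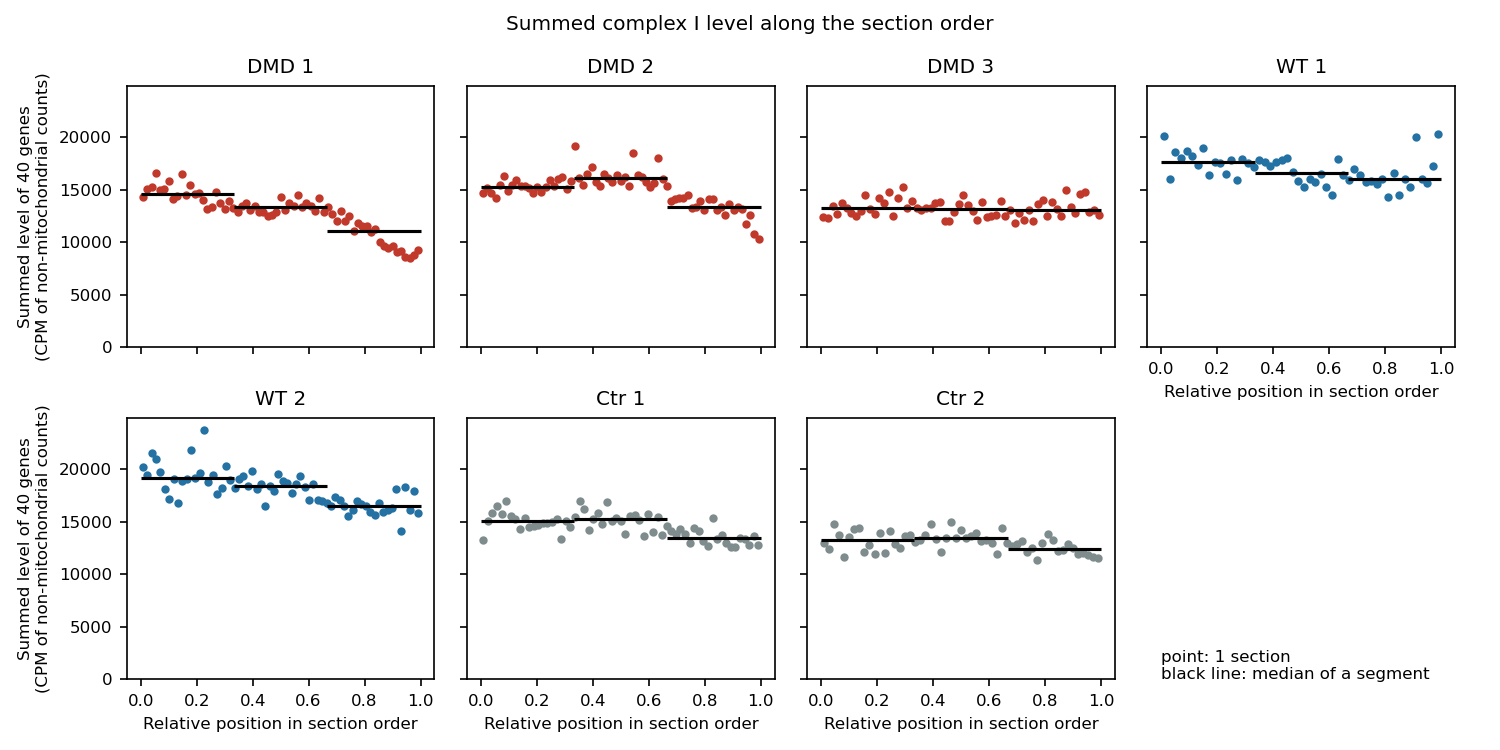
Summed complex I CPM per section, without mitochondrially encoded genes in the total, against the position of the section in the order (0 first, 1 last), in 1 panel per muscle with DMD, WT and Ctr in that order; points are sections and black lines the median of a segment. DMD 1 declines along the whole order, DMD 3 is flat, and the other 5 muscles end lower than they begin; with the whole section total the last segment of WT 1 is 2.7% above its first.

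The rank correlation of the score with position was -0.88, -0.53 and -0.03 in DMD 1, 2 and 3, -0.49 and -0.75 in WT, and -0.61 and -0.39 in Ctr. With the distance from the middle it was -0.07, -0.67 and 0.02 in DMD, 0.25 and -0.11 in WT, and -0.33 and -0.41 in Ctr. Sections of 1 muscle share their library, and these values are given as a description. The score of complexes II to V followed that of complex I from section to section, at 0.95, 0.79 and 0.47 in DMD, 0.85 and 0.87 in WT, and 0.77 and 0.64 in Ctr. With the tricarboxylic acid cycle score the correlation was 0.80, -0.46 and -0.23 in DMD, 0.16 and 0.50 in WT, and 0.47 and 0.33 in Ctr. With the outer membrane and import score it was 0.64, -0.55 and -0.22 in DMD, -0.04 and 0.14 in WT, and 0.04 and 0.35 in Ctr. All these scores share the section total. DMD 1, the muscle with the steepest decline, also had the clearest relation to other markers, with correlations of -0.78 with the macrophage, -0.76 with the fibroblast and matrix, -0.68 with the regenerating-fibre, 0.88 with the type 2A and slow-fibre and 0.89 with the erythroid score. In DMD 2 the correlation with the macrophage score was 0.74, with the opposite sign, and in DMD 3 it was 0.39. With the fibroblast and matrix score it was -0.0046 in DMD 2 and 0.13 in DMD 3, with the regenerating-fibre score -0.51 and 0.28, and with the type 2A and slow-fibre score -0.0043 and 0.12. The erythroid score followed that of complex I at 0.63 in DMD 2 and 0.16 in DMD 3, 0.69 and 0.74 in WT, and 0.67 and 0.37 in Ctr. These markers' part in the decline was not tested.

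Divided reads touched the genes unequally, and their part in the differences was not tested. In 17 genes at most 10% of the nonzero section values were not whole. Their median was -0.30 for DMD against Ctr and -0.31 for the other 22, and against WT it was -0.69 and -0.67 after scaling (without scaling factors the median of all 39 was 0.075). For the last segment against the first it was -0.20 for the 17 and -0.17 for the remaining 21 tested. Ndufb2, Ndufb8 and Ndufb9 overlap another annotated gene on the same strand, so their own level is uncertain.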

How the data were processed

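Per the labels, polyA RNA of single cryosections was made into barcoded libraries with an 8-base molecular identifier. Per the submitters' processing notes, reads were aligned with STAR 2.7.7a to GRCm38. The deposited unit is expected counts: per the file headers, featureCounts 2.0.1 summed exons by gene name on strand setting 1 and divided multi-mapped and multi-overlapping reads into fractions. Per the file headers, WT tables used Ensembl release 102 and Ctr and DMD tables another GRCm38 annotation, so the analysis kept genes whose name and length were the same in both.

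A section was kept with at least 1000 counts and 20% of its muscle's median (422 of 525). Counts were summed per muscle, or per segment (3 equal runs of the section order), and rounded. The muscle was the replicate. The quasi-likelihood test of edgeR 4.0.16 (R 4.3.3) was fitted to all muscles together after filterByExpr, with TMM factors of 0.669 to 1.41; fits of segments had the muscle as a block and weighted the groups equally. Benjamini-Hochberg adjustment covered every gene tested (13746, or 11853 for segments), with calls below 0.05. The ± after a log2 difference is its size divided by the square root of F. CPM beside differences are TMM-scaled. DESeq2 1.42.0 was an alternative. The code was tested on simulated data.

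Members and lists were chosen with earlier results of these data known. Named genes were the nuclear core subunits, called members with the largest differences, the 3 of highest level per kilobase, Ndufa4, Ndufa4l2 and members with few counts; other genes, among them Ndufa7, Ndufs4 and Ndufb4, were added after their values were seen. The values of 1 core subunit are not reported here; it stays in the fits and counts. Counting error and depth, lowest in DMD 2, limit the precision. No per-sample column was left unused.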

Additional observations from a re-analysis of the deposited data

How the results depend on the processing

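The 7 muscles limit every result, and the scaling decides the level. Without scaling factors (chosen after seeing the data) the complex I median was -0.010 for DMD against Ctr, 0.075 for DMD against WT and -0.078 for WT against Ctr. The all-gene medians were 0.33, 0.82 and -0.45. Of the complex I genes 0, 0 and 0 were called lower, and 0 lower for last against first. With totals that also left out mitochondrial genes (chosen after seeing the data) the complex I median was -0.0098 for DMD against Ctr, with 0 lower and 1 higher. It was -0.38 for DMD against WT, with 1 lower, and 0.39 for WT against Ctr, with 0 higher. For last against first it was -0.17, with all 38 below 0 and 10 called lower, where 200 of 11680 genes were. Without scaling factors Ndufs1, Ndufs7, Ndufv2 and Ndufa9 turned to 0.27, 0.19, 0.068 and 0.11 for DMD against Ctr, and to 0.25, 0.19, 0.075 and 0.10 with the mitochondrial genes out. For DMD against WT the turned values were 0.12 (Ndufs1), 0.044 (Ndufs7), 0.083 (Ndufv2), 0.25 (Ndufa10), 0.18 (Ndufa12), 0.31 (Ndufc1), 0.090 (Ndufa8), 0.28 (Ndufa4) and 0.0055 (Ndufa4l2), and for last against first 0.031 (Ndufs7). Genes called overall without scaling factors were 5148 for DMD against WT, 213 for WT against Ctr (8 with mitochondrial genes out), 811 for last against first, 0 for the middle, DMD minus Ctr (also 0), and 8 for last against first, DMD minus WT. The cause was not tested.

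DESeq2 called 4 complex I genes lower for DMD against Ctr (850 of all genes), 12 for last against first (206) and 2 higher for WT against Ctr (221). It called 475 genes in all for WT against Ctr and 0 for the middle, DMD minus Ctr. With no filter on low counts the genes called were 2999 for DMD against Ctr, 3208 for DMD against WT, 860 for WT against Ctr (1 complex I gene higher), 46 for the middle, 4 for the middle, DMD minus Ctr, 39 for last against first, DMD minus Ctr, and 64 for DMD minus WT. With only the 2 compared groups in the fit, 683 genes and 0 complex I genes were called for DMD against Ctr, and 586 and 3 higher for WT against Ctr. WT and Ctr joined (chosen after seeing the data) gave 3 lower, a median of -0.48 and Ndufa4 at -0.048. Ends of 20% gave 227 genes for last against first with 4 complex I genes lower, 4 genes for DMD minus Ctr and 2 for DMD minus WT. All sections gave 2 genes for the middle, DMD minus Ctr.

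Same-numbered muscles deviated together with correlations of 0.093 and 0.189 (DMD and Ctr), 0.006 and 0.058 (DMD and WT) and 0.025 and 0.025 (WT and Ctr), so the numbers were not taken as pairs. With the replicate block 3890 genes and 6 complex I genes lower were called for DMD against Ctr, 4063 and 25 for DMD against WT, and 798 and 3 higher for WT against Ctr; Ndufs1 was at 0.0047 for DMD against Ctr.

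Leaving out each muscle in turn gave 56 to 3425 genes for DMD against Ctr, 0 to 5 complex I genes lower and medians of -0.34 to -0.17; 68 to 3595, 0 to 24 and -0.75 to -0.61 for DMD against WT; 2 to 513, 0 to 3 higher and 0.25 to 0.52 for WT against Ctr. It gave 13 to 35 genes and medians of 0.02 to 0.07 for the middle; 103 to 468, 0 to 15 lower and -0.22 to -0.15 for last against first. For the middle, DMD minus Ctr, it gave 0 to 2 genes and -0.01 to 0.10; for last against first 1 to 16 and -0.19 to 0.07 for DMD minus Ctr, and 2 to 47 and -0.26 to -0.00 for DMD minus WT. For single genes that turned, Ndufs1 ran over -0.27 to 0.061 for DMD against Ctr (0.061 without DMD 1, 0.022 without DMD 3) and Ndufa4l2 over -0.34 to 0.0055 for last against first (0.0055 without Ctr 1). Of the values for single genes, 338 of 405 under the other settings kept their direction and side of the threshold (20 reversed, 25 lost and 22 gained the call), as did 248 of 315 with a muscle left out (3 reversed, 51 lost, 13 gained).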

Other observations

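Rows whose names end in -ps were left out of the complex I genes by their name, and 3 of them had counts. Ndufs5-ps (chr16:42955631-42955949) had 13.6, 12.8 and 14.2 CPM in the DMD muscles, 19.4 and 26.9 in WT, and 27.0 and 27.3 in Ctr. All 3 DMD values lay below the other 4, and the gene passed both tests, at -1.003 ± 0.20 against Ctr (edgeR adjusted p = 0.0167) and -0.77 ± 0.20 against WT (0.0316). Ndufa12-ps (chr5:130188395-130188796) had 482, 1011 and 1287 CPM in DMD, 837 and 1052 in WT, and 1507 and 1520 in Ctr, below the level of Ndufa12 in every muscle. It did not pass (-0.71 ± 0.35, adjusted p = 0.204, against Ctr; -0.03 ± 0.36, 0.968, against WT). Ndufb1-ps (chr12:101968090-101977068) had 175, 204 and 297 CPM in DMD, 236 and 296 in WT, and 214 and 196 in Ctr, with differences of 0.13 (adjusted p = 0.762) from Ctr and -0.24 (0.55) from WT.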
